A study of Triticum aestivum with 3 samples.

Results

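The genes described here are the high-confidence genes of homoeologous group 5 of bread wheat, that is, those annotated on chromosomes 5A, 5B and 5D. They were chosen by identifier alone: the identifier names the chromosome, and identifiers that carry the suffix of low-confidence models were left out. The rule retained 16568 of the 105200 high-confidence genes (15.7%), with 5429 genes on 5A, 5576 on 5B and 5563 on 5D. RNA was sequenced from shoots of Chinese Spring, the cultivar from which the wheat reference genome was made, in 3 biological replicates. There was a single group: untreated wild type seedlings, grown in long days at the age of 12 days by the source name and of 14 days by the stage label. No comparison between groups of plants was therefore possible, and the comparisons below are between chromosomes within the same libraries. A shoot holds many cell types, and in such bulk RNA fewer cells of a type and less RNA per cell cannot be told apart.

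Bread wheat is an allohexaploid: its A, B and D subgenomes come from related diploid grasses, and most genes exist as homoeologs at like places on the 3 chromosomes of a group. A homoeologous group therefore allows the output of 3 related chromosomes to be read in the same nuclei. The D subgenome is the one that joined last. Group 5 chromosomes have a short arm with few genes and a long arm with many, and identifier numbers were assigned in order along each assembled chromosome, so that the place of a gene in the identifier order stands in for its place on the chromosome. Because homoeologs are nearly alike in sequence, part of the reads fit several of them, and the quantification divided such reads in fractions. Levels of near-identical copies are therefore uncertain. The files and the reference table used here give no names for these identifiers (0 of the 16568 matched), so that genes are given by identifier, no function is stated for any of them, and markers of the shoot could not be checked.

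The libraries held 75465873, 76337649 and 67470696 estimated read counts in replicates 1, 2 and 3, of which group 5 took 19.6%, 20.2% and 23.4%. Replicate 3 stood apart. Over the group 5 genes, Pearson's r of log2(TPM + 1) was 0.993 between replicates 1 and 2, but 0.965 and 0.960 between each of them and replicate 3 (a correlation across genes, which are not independent). Among the 6196 group 5 genes with a median of at least 1 TPM (the sequencing level of a transcript, corrected for its length and scaled to a fixed total per library), the median log2 ratio of replicate 3 to replicate 1 was -0.47, against 0.05 for replicate 2 to replicate 1. The shift was of one size on the 3 chromosomes, -0.47 on 5A, -0.46 on 5B and -0.47 on 5D, and replicate 3 was the lowest library for 83.8%, 85.4% and 82.3% of these genes. In the same library the 10 most abundant high-confidence genes of the genome took 28.3% of all TPM, against 20.3% and 21.3% in replicates 1 and 2. TPM values sum to the same total in each library, and the part of the top genes in this shift was not tested. Values below are given per library for most measures that replicate 3 decides, but the TPM shares of bins only as mean and SD.

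To find out whether the 3 chromosomes carry the same stock of genes, identifiers and transcript lengths were compared first. The chromosomes differed little: 5B had 147 genes more than 5A, and 5D had 13 fewer than 5B. Their genes were modelled with 6631, 6891 and 6889 transcripts on 5A, 5B and 5D, and 15.7%, 15.9% and 16.3% of genes had several transcripts. The median length of the longest transcript was 1366 bases on 5A, 1440 on 5B and 1435 on 5D, and transcripts under 300 bases were the longest of 250, 189 and 216 genes. These are properties of the annotation, are the same in every library and carry no replicate error.

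A gene was called expressed when the median TPM of the 3 replicates was above 0. By this criterion 3679 genes of 5A (67.8%), 3852 of 5B (69.1%) and 3899 of 5D (70.1%) were expressed, against 67.3% of all high-confidence genes. The order 5A, 5B, 5D was the same in each library taken alone. The expressed share of 5A was 67.7%, 68.0% and 70.05% in replicates 1, 2 and 3. That of 5B was 69.2%, 69.0% and 70.7%, and that of 5D was 69.8%, 70.3% and 72.0%. Thus 5D lay above 5A by 2.09, 2.33 and 1.98 percentage points in the 3 libraries, a mean of 2.13 ± 0.18 (SD, n = 3), while the groups of library values overlapped because replicate 3 was higher than the others on each chromosome. The difference between 5B and 5A was smaller, 1.48, 0.95 and 0.70 points, and so was that between 5D and 5B, 0.61, 1.38 and 1.28 points.

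Differences between chromosomes were tested over libraries with an exact two-sided sign-flip permutation test. With 3 libraries this test cannot give a p below 0.25, so that no difference here can pass a threshold of 0.05. Each of the 3 differences in expressed share reached that smallest p of 0.25 (exact permutation test, n = 3), or 0.375 after Benjamini-Hochberg adjustment over the 27 differences tested in all. Of these 27 differences, 18 had the same sign in the 3 libraries. The libraries are the labels' biological replicates, and nothing further says how their plants were grown apart, so that the p-values cover only these 3 samples. A p of 0.25 in this test says that the sign was the same in the 3 libraries, whatever the spread.

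Part of the genes that separated the chromosomes had very low levels. On 5A, 1339 genes were at 0 in every library, on 5B 1313 and on 5D 1248. Above 0 in every library were 3401, 3532 and 3588 genes. Levels above 0 but below 1 TPM were found for 30.7%, 31.7% and 32.4% of genes, and 9.30%, 9.40% and 10.003% of the expressed genes had a median under 3 estimated counts. When at least 1 TPM was asked for, 37.1% of 5A, 37.4% of 5B and 37.7% of 5D genes passed, near the 36.4% of all high-confidence genes, and the gap between 5D and 5A shrank from 2.32 to 0.65 points by the median of the replicates. At a cut of 0.5 TPM it was 0.57 points. At these cuts 5D stayed above 5A in each of the 3 libraries.

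**Figure D1:**
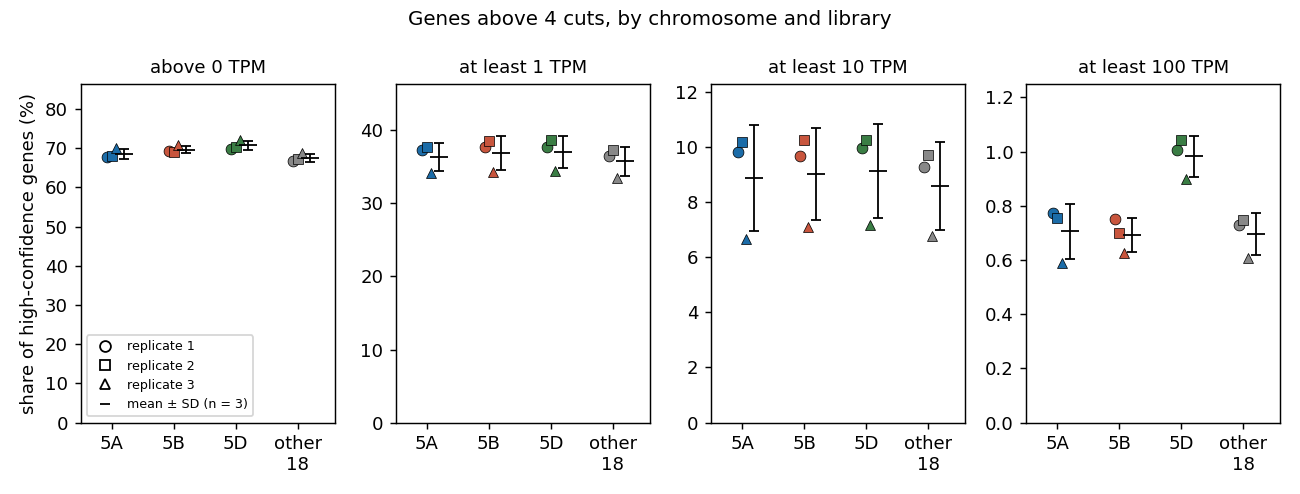
Share of high-confidence genes (percent, vertical axes from 0) of 5A, 5B, 5D and the other 18 chromosomes that were above 0 TPM or at least 1, 10 or 100 TPM, with a symbol per library and the mean with its SD (n = 3) beside it. Chromosomes lie close together in the first 3 panels, replicate 3 is the lowest library from 1 TPM upward, and at 100 TPM the 3 values of 5D (0.899% to 1.04%) lie above all values of 5A and 5B.

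Transcript length and the number of annotated transcripts went with expression far more than the chromosome did. Of genes with a transcript of at least 2000 bases, 89.5% were expressed on 5A, 86.7% on 5B and 87.8% on 5D. For genes of at least 300 but under 1000 bases the shares were 49.4%, 51.6% and 50.03%. Genes with several transcripts were expressed in 91.9%, 93.1% and 91.3% of cases, those with a single transcript in 63.3%, 64.5% and 66.0%. The shortest genes were the class in which the chromosomes differed most: below 300 bases, 39.8% of the 5D genes were expressed against 27.2% on 5A and 25.4% on 5B. Without genes under 300 bases, 5D stayed 1.59 points above 5A. Across genes, Spearman's rho between length and median TPM was 0.32 on 5A, 0.28 on 5B and 0.27 on 5D, and is given as a description, since longer transcripts also collect more reads at the same level.

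The typical expressed gene had a similar level on the 3 chromosomes. The median TPM of expressed genes was 1.38 on 5A, 1.35 on 5B and 1.31 on 5D, with 1.32 on the other 18 chromosomes. In single libraries it was 1.42, 1.496 and 0.938 on 5A, 1.34, 1.53 and 0.926 on 5B, and 1.33, 1.43 and 0.891 on 5D. The gap between replicate 3 and the other libraries was thus several times larger than any gap between chromosomes. The difference 5D minus 5A was -0.07 ± 0.022 TPM (SD, n = 3), negative in each library, with p = 0.25 (exact permutation test, n = 3). It changed sign, to 0.035 TPM, when genes at 0 were included. The difference 5D minus 5B was -0.010, -0.105 and -0.035 TPM in replicates 1, 2 and 3, also with p = 0.25 (exact permutation test, n = 3). With genes at 0 included it changed sign too, to 0.014 TPM. The quartiles were alike as well: the lower quartile of the expressed genes by the median of the replicates was 0.186, 0.180 and 0.177 TPM on 5A, 5B and 5D, and the upper quartile was 4.95, 5.06 and 5.04 TPM.

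Among genes of at least 100 TPM 5D stood out, but not at 10 TPM. At least 10 TPM was reached by 518 genes of 5A (9.54%), 522 of 5B (9.36%) and 540 of 5D (9.71%), against 9.13% of all high-confidence genes. At this cut 5D minus 5A was 0.16, 0.06 and 0.49 points in replicates 1, 2 and 3. For 5D minus 5B it was 0.29, -0.01 and 0.05 points, with mixed signs. At least 100 TPM was reached by 40 genes of 5A (0.737%), 40 of 5B (0.717%) and 56 of 5D (1.01%), against 0.728% of all. At 1000 TPM and above there were 4 genes of 5A, 8 of 5B and 12 of 5D. In replicates 1, 2 and 3, 56, 58 and 50 genes of 5D were at 100 TPM or more, compared with 42, 41 and 32 of 5A and 42, 39 and 35 of 5B. Each library of 5D was above every library of 5A and of 5B. The difference at 100 TPM was 0.28 ± 0.039 points between 5D and 5A and 0.29 ± 0.048 points between 5D and 5B (SD, n = 3), each with p = 0.25 in the exact permutation test over the 3 libraries. Between 5B and 5A it was -0.01 ± 0.047 points, with mixed signs.

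The share of the transcript pool held by each chromosome was far less even than gene numbers. Of the TPM of all high-confidence genes, 5A held 4.02%, 4.03% and 4.28% in replicates 1, 2 and 3. Chromosome 5B held 5.05%, 5.07% and 4.98%. Chromosome 5D held 10.5%, 11.5% and 13.1%, more than 5A and 5B together in each library. With an even share of 4.76% for each of 21 chromosomes, 5A was at rank 9, 5B at rank 5 and 5D at rank 2. This even share takes no account of gene number, which ran from 3579 genes on 4D to 6109 on 2B. A chromosome with many genes, as those of group 5, can thus lie above 4.76% without a higher level per gene. The difference 5D minus 5A was 7.57 ± 1.19 points and 5D minus 5B was 6.65 ± 1.37 points (SD, n = 3), and 5B lay above 5A by 0.92 ± 0.20 points. Each of these had the same sign in the 3 libraries and p = 0.25, the smallest the exact permutation test can give.

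Most of the excess of 5D was in a few genes. When the gene of highest median TPM of each chromosome was left out, the shares became 4.68 ± 0.096% for 5A, 5.95 ± 0.25% for 5B and 8.97 ± 0.79% for 5D (SD, n = 3). Without the 10 highest genes of each chromosome they were 4.99 ± 0.099%, 5.50 ± 0.085% and 6.86 ± 0.053%. Without the top 1% of genes they were 5.01 ± 0.16%, 5.23 ± 0.16% and 5.67 ± 0.058%, and with each gene capped at 100 TPM they were 5.08 ± 0.060%, 5.28 ± 0.045% and 5.62 ± 0.017%. The order 5A, 5B, 5D was kept in each of these settings, but the lead of 5D over 5A narrowed to 0.54 points in the capped version. Chromosome 5D kept rank 2 of 21 without the top 10 genes and rank 3 without the top 1%, whereas 5A moved to rank 7 and 8 and 5B to rank 6 in both.

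**Figure D2:**
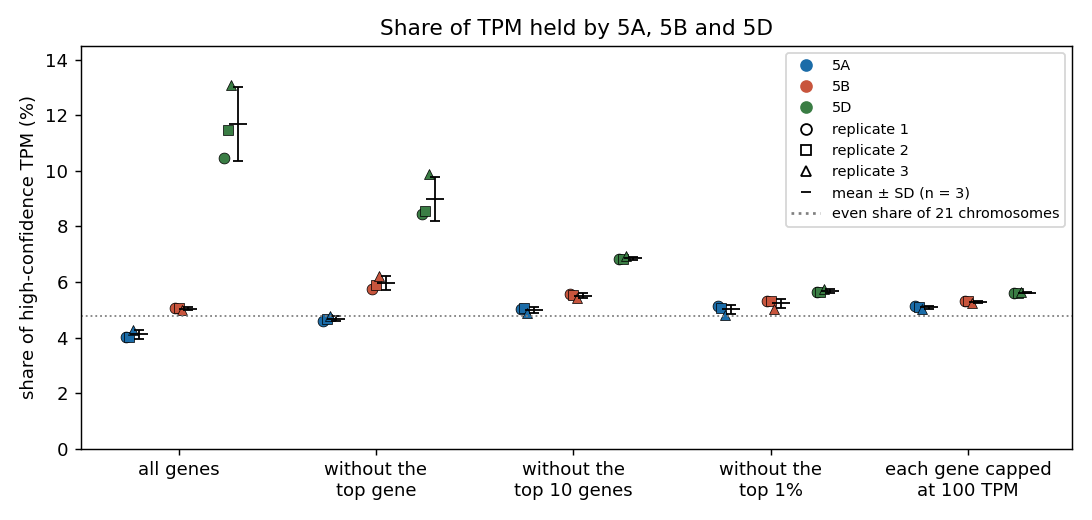
Share of the TPM of high-confidence genes (percent, vertical axis from 0) held by 5A, 5B and 5D with all genes, without the top gene, the top 10 or the top 1% of every chromosome, and with each gene capped at 100 TPM, with a symbol per library, the mean ± SD (n = 3) and a dotted line at the even share of 4.76%. The dotted line takes no account of the gene number of a chromosome. The lead of 5D falls from 11.7% against 4.11% and 5.03% to 5.62% against 5.08% and 5.28%.

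The concentration was of another order on 5D than on its homoeologs. On 5D, 4, 2 and 2 genes sufficed for 50% of the chromosome's TPM in replicates 1, 2 and 3. On 5A it took 47, 48 and 10 genes, and on 5B 22, 21 and 9. The top 10 genes held 69.4 ± 6.31% of the TPM of 5D, 43.8 ± 6.69% of that of 5B and 37.3 ± 10.4% of that of 5A (SD, n = 3). Replicate 3 decided the size of these values on 5A and 5B: there the top 10 genes of 5A held 49.3%, against 31.6% and 30.9% in the other libraries, and those of 5B held 51.5%, against 39.6% and 40.2%. On 5D the top 10 held 64.3%, 67.3% and 76.4%.

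**Figure D3:**
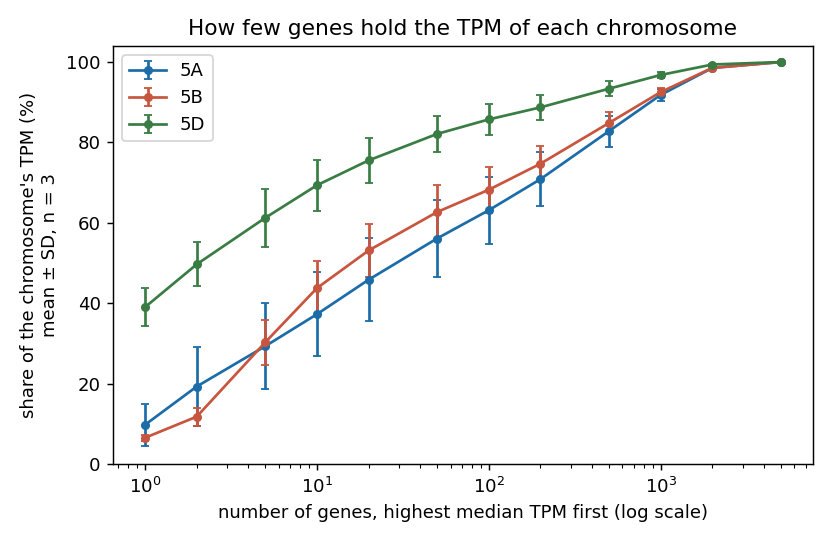
Share of each chromosome's TPM (percent, mean ± SD, n = 3) held by its most abundant genes, counted from the highest median TPM on a log axis. The curve of 5D starts at 39.1% with 1 gene and reaches 69.4% with 10, while those of 5A and 5B start at 9.81% and 6.58% and stay close to each other.

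The top gene of 5D was TraesCS5D02G425100 (longest transcript 1431 bases), the gene of second highest level among all high-confidence genes. It had 29970, 39947 and 50140 TPM in replicates 1, 2 and 3, a mean of 40019 ± 10085 (SD, n = 3). It alone held 33.9%, 40.2% and 43.1% of the TPM of 5D and 3.54%, 4.61% and 5.64% of the TPM of all high-confidence genes, in replicates 2 and 3 more than the whole of 5A. The next gene of 5D, TraesCS5D02G010200 (1365 bases), had 8698, 10911 and 12998 TPM and was at rank 5 of all high-confidence genes. Both were highest in replicate 3 and lowest in replicate 1. They lie far apart, at 74.6% and 1.81% of the identifier order, and no gene of 5A or 5B reached the level of either in any library. The highest gene of 5B, TraesCS5B02G052700 (1542 bases), had 2976, 3133 and 2498 TPM, and the highest of 5A, TraesCS5A02G165700 (871 bases), had 2233, 2445 and 6031 TPM.

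The next genes of 5D were lower by their median, and some of them were much less steady. TraesCS5D02G488100 (854 bases) had 3731, 2562 and 3400 TPM. TraesCS5D02G457400, whose transcript has only 240 bases, had 2724, 746 and 2171 TPM, a spread of 1.87 on the log2(TPM + 1) scale. The top 10 of 5D also held TraesCS5D02G458300 (213 bases, 1090, 1126 and 1364 TPM) and TraesCS5D02G008200 (276 bases, 1381, 1980 and 1041 TPM). On 5B the second gene, TraesCS5B02G234900 (246 bases), had 2446, 2819 and 1602 TPM, and TraesCS5B02G043500 (135 bases) had 791, 909 and 638 TPM. For transcripts this short the effective length by which TPM divides the counts is small, and genes under 300 bases held 8.41%, 6.86% and 5.65% of the TPM of 5D, 8.42%, 9.31% and 5.74% of that of 5B and 4.73%, 5.06% and 4.00% of that of 5A.

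Many of the other top genes lay at like places on the 3 chromosomes. Among the 12 highest genes of each chromosome with a transcript of at least 500 bases, 19 genes fell into 5 sets with a member on 5A, on 5B and on 5D, each member lying within 1.5 points of the identifier order of the next. The window and the number of genes were chosen after the values had been seen, and without an annotation it was not tested whether the members are homoeologs. Since every member came from the 12 highest genes of its chromosome, like levels within a set were in part fixed by this choice. Levels within a set were of the same order on the 3 chromosomes, with 1 exception given below.

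The first and highest set lies at 28.2% to 29.6% of the identifier order and has a pair of genes on each chromosome. On 5A, TraesCS5A02G165400 had 2377, 2351 and 5643 TPM beside the 2233, 2445 and 6031 TPM of TraesCS5A02G165700. On 5B, TraesCS5B02G162600 had 2276, 2386 and 4195 TPM and TraesCS5B02G162800 had 1953, 1973 and 5598 TPM. On 5D, TraesCS5D02G169600 had 2625, 2894 and 5542 TPM and TraesCS5D02G169900 had 3365, 3359 and 8199 TPM. Replicates 1 and 2 were close for the 6 genes, with ratios of 0.989 to 1.103, whereas replicate 3 was 1.84 to 2.87 times as high as replicate 1. Summed over the pair, 5D was highest in each library, with 5990, 6254 and 13741 TPM, followed by 5A with 4610, 4796 and 11674 TPM and 5B with 4230, 4358 and 9794 TPM.

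The other sets had a single gene on 5A and on 5B and shifted less between libraries. In the second set, at 39.5% to 41.6% of the order, TraesCS5A02G229300 had 1162, 1200 and 1291 TPM, TraesCS5B02G227900 had 1268, 1353 and 1648 TPM and TraesCS5D02G238300 had 1512, 1606 and 1692 TPM. The third set, at 56.2% to 57.7%, had TraesCS5A02G322500 with 1153, 1207 and 1498 TPM, TraesCS5B02G322900 with 1716, 1763 and 2357 TPM and TraesCS5D02G329200 with 1816, 1799 and 2341 TPM. In the second set 5D was above 5B and 5B above 5A in each library, and in the third 5B and 5D were near each other and both above 5A. The fourth set, at 61.6% to 62.7%, was led by 5B: TraesCS5B02G353200 had 1391, 1360 and 2092 TPM, against 928, 914 and 1385 TPM for TraesCS5A02G350600 and 1021, 1036 and 1661 TPM for TraesCS5D02G357600. No subgenome was thus the highest in all sets.

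The fifth set held the exception. At 85.7% to 87.2% of the order, TraesCS5A02G482800 had 704, 730 and 1067 TPM, TraesCS5B02G496000 had 824, 838 and 1276 TPM and TraesCS5D02G496400 had 986, 1019 and 1389 TPM. These 3 were each highest in replicate 3. The fourth member, TraesCS5D02G488100, was higher than the other members of the set in each library, and with 3731, 2562 and 3400 TPM it was highest in replicate 1. Over the 5 sets, 18 of the 19 genes were highest in replicate 3.

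**Figure D4:**
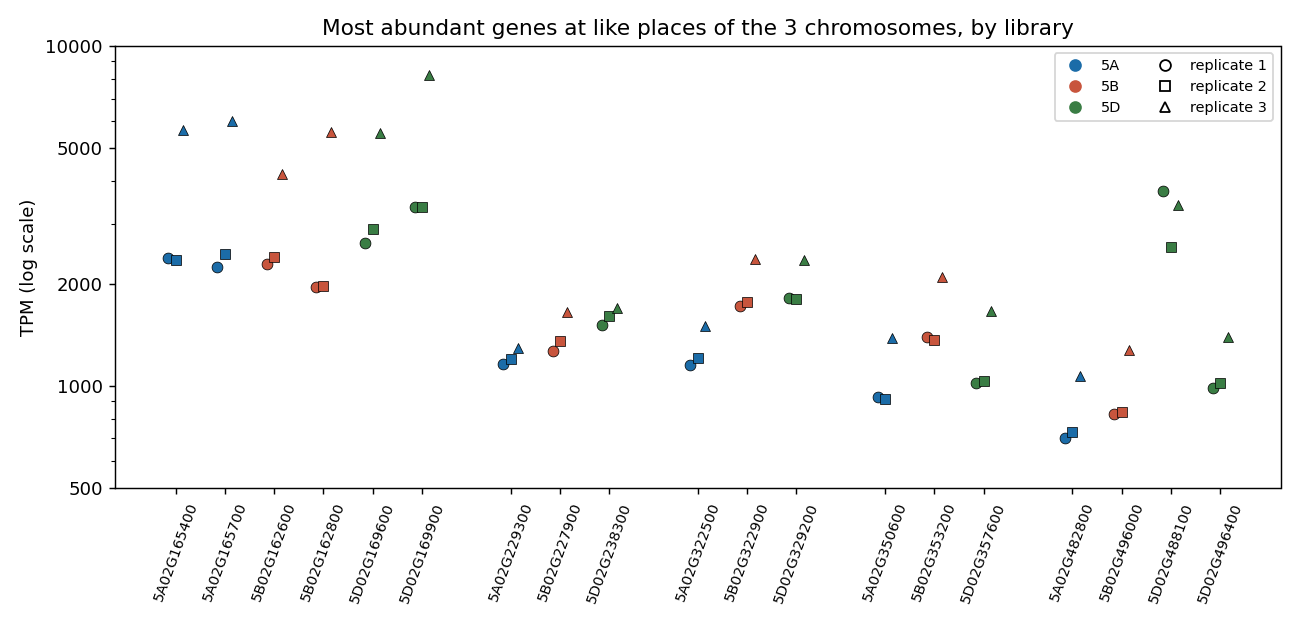
TPM (log axis) in each library of the 19 abundant genes that fall into 5 sets of like place on 5A, 5B and 5D, the sets separated by gaps and ordered along the chromosome. In the first set the 6 genes have at most 3365 TPM in replicates 1 and 2 and between 4195 and 8199 TPM in replicate 3, and TraesCS5D02G488100 of the last set stands above its neighbours.

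The remaining top genes fell into no set with members on all 3 chromosomes, and several were lower in replicate 3. TraesCS5A02G015000 (1026 bases) had 726, 527 and 330 TPM, TraesCS5A02G424400 (1524 bases) had 494, 593 and 351 TPM, and TraesCS5B02G145900 (1034 bases) had 1275, 1128 and 861 TPM. TraesCS5A02G457500 (962 bases) went the other way, with 503, 514 and 720 TPM, and the short TraesCS5A02G046700 (231 bases) had 478, 316 and 439 TPM. Of the top 10 genes, 7 of 5A, 6 of 5B and 7 of 5D were highest in replicate 3, the library in which most other genes were lowest.

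The genes that differed most between the libraries, among those with a median of at least 10 TPM, moved in both directions. TraesCS5D02G464900 (801 bases) had 61.0, 48.1 and 483 TPM in replicates 1, 2 and 3, which was 7.91 times the level of replicate 1 in replicate 3. TraesCS5A02G454200 (1336 bases) had 100, 88.0 and 485 TPM. On 5B, neighbouring genes were named not by range but as the adjacent pair whose lower member had the highest median TPM. They were TraesCS5B02G463000 (801 bases) with 135, 93.2 and 524 TPM and TraesCS5B02G463100 (1166 bases) with 237, 165 and 515 TPM. The genes of both rules named so far lie at 80.9% to 81.6% of the identifier order of their chromosomes and were grouped after the values had been seen. These 4 genes were all lowest in replicate 2 and were all 2.17 to 7.91 times as high in replicate 3 as in replicate 1.

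The other genes of largest range were low in replicate 3. TraesCS5A02G263100 (2045 bases) had 36.7, 37.5 and 6.96 TPM. TraesCS5D02G103900 (3384 bases) had 29.6, 35.0 and 4.44 TPM. On 5B, TraesCS5B02G083900 (402 bases) had 12.1, 20.03 and 1.80 TPM and TraesCS5B02G290200 (1041 bases) had 13.0, 18.4 and 1.71 TPM. Replicates 1 and 2 were within 1.65 times of each other for these 4 genes. With a single condition it cannot be told apart whether the plants or the libraries differed.

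Along the chromosomes the expressed share was not even. The genes of each chromosome were put in identifier order and divided into 10 bins of equal gene number, with bins 1 and 10 as the outer and bins 4 to 7 as the inner bins. In the outer bins 59.3%, 58.8% and 64.2% of genes of 5A, 5B and 5D were expressed, and in the inner bins 68.6%, 69.2% and 68.6%. Outer minus inner was -9.26 ± 0.88 points on 5A, -9.94 ± 1.38 on 5B and -4.22 ± 0.83 on 5D over single libraries (SD, n = 3), negative in each library of each chromosome and with p = 0.25 for each in the exact permutation test. On the other 18 chromosomes pooled the same difference was larger, -20.1 ± 0.079 points. Their profiles were not computed singly, so that the pool does not show how any one of them runs. With 5 bins, the first and last against the middle one, the difference was smaller in size and not of one sign (0.17, -0.16 and 1.36 points on 5A, 5B and 5D).

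The peak of the group 5 chromosomes lay before the middle. On 5A, 77.9%, 79.7% and 80.5% of genes of bins 2, 3 and 4 were expressed, on 5B 78.9%, 83.1% and 78.7%, and on 5D 77.3%, 84.9% and 77.4%. The share was lower beyond, with 60.6%, 64.0% and 60.1% in bin 6, which on 5D was lower than in either outer bin. Over bins 2 to 4 together, 79.4%, 80.2% and 79.9% of genes were expressed, against 62.8%, 64.3% and 65.9% in the rest of 5A, 5B and 5D. The difference was 15.9 ± 0.90, 15.7 ± 0.59 and 13.7 ± 1.90 points over libraries (SD, n = 3). It was 2.97 ± 0.31 points on the other 18 chromosomes pooled, where the peak of the pool, 78.9%, was in bin 5. These bins were chosen after the shares had been seen, and the difference is given with no test.

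In the same bins the genes were longer and more often had several transcripts. The median length in bins 2 to 4 was 1468 bases on 5A, 1512 on 5B and 1507 on 5D, against 1310, 1408 and 1407 in the rest. In bin 3, 21.4%, 24.6% and 24.6% of genes had several transcripts, against 11.6%, 10.9% and 10.1% in bin 1. The level of expressed genes was higher there too, a median of 1.87, 1.85 and 1.79 TPM in bins 2 to 4 against 1.14, 1.15 and 1.098 TPM elsewhere. The part of transcript length in the higher expressed share was not tested. In both outer bins 5D was above 5A and 5B. In bin 1, 65.4% of its genes were expressed, against 59.3% on 5A and 60.8% on 5B, and in bin 10, 62.9% against 59.2% and 56.9%. Without an annotation it was not tested whether a bin holds homoeologous genes on the 3 chromosomes, so that these bins may differ in their genes.

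**Figure D5:**
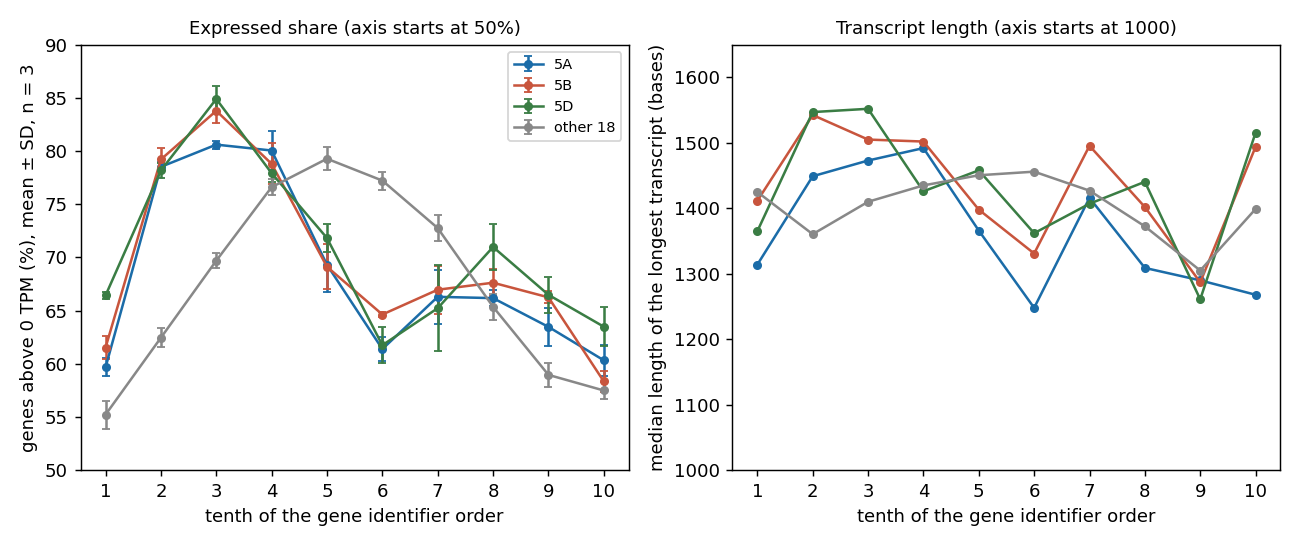
Left, share of expressed genes (percent, mean ± SD over 3 libraries, axis from 50) and right, median length of the longest transcript (bases, axis from 1000) in 10 bins of the identifier order, for 5A, 5B, 5D and the other 18 chromosomes pooled. The 3 group 5 chromosomes run together, highest in bins 2 to 4 and low again at bin 6, while the pool of the other chromosomes peaks at bin 5.

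A simple distance from the middle described the group 5 chromosomes poorly. Spearman's rho across genes between the distance from the middle of the order and median TPM was -0.03 on 5A, -0.03 on 5B and -0.00 on 5D, whereas it was -0.20 on the other 18 chromosomes pooled. With the position counted from the start, rho was -0.09, -0.10 and -0.08. These are descriptions across genes, which share libraries and neighbours.

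On 5D the bins with most of the TPM were not those with most expressed genes, whereas on 5A and 5B they were close or the same. On 5D, bin 8, which holds TraesCS5D02G425100, had 42.4 ± 4.15% of the TPM of the chromosome and bin 1, which holds TraesCS5D02G010200, had 16.4 ± 1.48%. On 5A and 5B the highest bin was bin 3, with 28.2 ± 7.62% and 23.5 ± 5.16% (SD, n = 3), where the first set of abundant genes lies. With the top 10 genes of each chromosome left out, the TPM was spread more evenly, and the highest bins were bin 8 on 5A with 15.4 ± 1.01%, bin 9 on 5B with 13.8 ± 3.05% and bin 9 on 5D with 19.6 ± 4.21%. Bin 9 holds the genes at 80.9% to 81.6% of the order that were high in replicate 3, and on 5D also TraesCS5D02G496400 of the fifth set. The part of these genes in the TPM of the bin was not tested.

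Neighbouring genes resembled each other to a small degree. After an expressed gene the next gene in the order was expressed in 73.4% of cases on 5A, 73.9% on 5B and 75.01% on 5D, and after a gene that was not expressed in 55.9%, 58.2% and 58.5%. Spearman's rho of median TPM between direct neighbours was 0.18, 0.17 and 0.17, and at a distance of 10 genes it was 0.07, 0.05 and 0.05. Between genes 200 places apart it was still 0.04, 0.03 and 0.05. The values of the 3 chromosomes lay close to each other at each distance.

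Runs of neighbouring genes at 0 TPM in all 3 libraries reached 9 genes on 5A, 9 on 5B and 11 on 5D. On 5A there were 3 such runs, from TraesCS5A02G254700 to TraesCS5A02G255500, from TraesCS5A02G350900 to TraesCS5A02G351700 and from TraesCS5A02G463800 to TraesCS5A02G464600. The run of 5B went from TraesCS5B02G434100 to TraesCS5B02G434900, and that of 5D from TraesCS5D02G314300 to TraesCS5D02G315400. Runs of at least 5 such genes numbered 25, 26 and 23 on 5A, 5B and 5D. The run of 5A that starts at TraesCS5A02G350900 lies 3 places in the order after TraesCS5A02G350600, a member of the fourth set with a median of 928 TPM, so that genes at 0 and an abundant gene were close neighbours.

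Runs of genes with at least 1 TPM in every library were as long. The longest had 9 genes on 5A, from TraesCS5A02G186200 to TraesCS5A02G187000, with 2.19 to 58.6 TPM. On 5B it had 12 genes, from TraesCS5B02G110700 to TraesCS5B02G111900, with 1.39 to 178 TPM, and on 5D 9 genes, from TraesCS5D02G122600 to TraesCS5D02G123400, with 3.69 to 374 TPM. All lie between 19.2% and 33.1% of the order, within bins 2 to 4. The adjacent pairs of 5A and 5D chosen in the same way, by the level of the lower member, included very short transcripts: TraesCS5A02G420700 (111 bases) had 175, 226 and 236 TPM beside TraesCS5A02G420800 (250 bases) with 324, 556 and 426 TPM, and TraesCS5D02G010100 (111 bases) had 322, 791 and 205 TPM beside TraesCS5D02G010200. The 322 TPM of TraesCS5D02G010100 in replicate 1 rested on 428 estimated counts, against 821399 for its neighbour.

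Compared with the rest of the genome, group 5 had slightly more expressed genes and, through 5D, a larger share of the TPM. Of its genes 69.0% passed the criterion for expressed genes, against 66.9% on the other 18 chromosomes, and the difference was 2.11, 2.01 and 2.31 points in the 3 libraries. Among the 21 chromosomes 5A ranked 10, 5B 6 and 5D 3 for the expressed share, so that the 3 chromosomes were not set apart from all others. Within its subgenome each lay inside the range of the other 6 chromosomes, which was 63.7% to 69.1% for A, 64.5% to 71.8% for B and 65.1% to 72.3% for D. A group 5 chromosome held on average 6.94 ± 0.48% of the TPM, against 4.40 ± 0.079% for the other 18 (SD, n = 3). This average was carried by 5D with its 11.7%, while 5A with 4.11% lay below the mean of the other 18 and 5B with 5.03% little above it. The mean of the other 18 was itself raised by 3B, which held 18.1%, the highest share of the 21. These means per chromosome take no account of gene number. Group 5 had 15.7% of the high-confidence genes and 19.5%, 20.6% and 22.4% of their TPM in replicates 1, 2 and 3. By rank among the 21, 5A was at 9 and 5B at 5. The differences from the other 18 in expressed share and in mean TPM share had the same sign in the 3 libraries, with p = 0.25 (exact permutation test, n = 3). The median TPM of expressed genes differed by 0.02 ± 0.032 TPM, with mixed signs.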

How the data were processed

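RNA was measured in 3 libraries of a single group, the biological replicates of Chinese Spring shoots (poly(A), directional). The authors trimmed reads with Trimmomatic 0.36 and quantified transcripts with kallisto (version not given in the sources used here) against an annotation derived from IWGSC RefSeq 1.1, made of high-confidence genes and those low-confidence genes that overlap histone mark peaks. The deposited tables hold, per transcript, the authors' estimated counts (reads divided in fractions, without normalization) and TPM, in which counts are divided by effective length and scaled to a fixed total per library.

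Here TPM and estimated counts were summed per gene, and a median TPM above 0 defined expressed genes, as in the study's methods. Chromosomes were compared within libraries by exact two-sided sign-flip permutation tests, with Benjamini-Hochberg adjustment over 27 differences. The expressed shares, medians and bins were checked on simulated data, and the permutation test on short series of numbers with known p. Levels under 3 estimated counts, the limit that a count of 0 allows, were counted apart. A library total of 67470696 to 76337649 estimated counts makes 1 count worth 0.0108 to 0.0114 TPM at the median.

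Genes named are, on each chromosome, the 10 of highest median TPM, the 2 of largest range of log2(TPM + 1) among those of at least 10 TPM, the adjacent pair whose lower member is highest, the ends of the longest runs at 0, and, chosen after values were seen, the genes at like places and the runs of expressed genes. The members and lists were chosen with earlier results of these data known. Alternatives were cuts of 0.1, 0.5 and 1 TPM or 3 counts, above 0 in all 3 replicates, genes at 0 included, a pseudocount of 0.1, means of replicates, transcripts of at least 300 bases, low-confidence genes added, 5 or 20 bins, bins of equal width, bins 2 to 4 as inner bins (added after seeing the data), and leaving out each replicate. The reference table (IWGSC CS RefSeq v2.1) matched 0 of 16568 identifiers. Computations were run in Python 3.11.15 with scipy 1.17.1, pandas 2.3.3 and numpy 2.4.6, and plots in matplotlib 3.10.9.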

Additional observations from a re-analysis of the deposited data

How the results depend on the processing

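Of 173 values under alternatives, over 27 results, 143 kept their direction and 30 did not, and 13 results had no reversal. Since p cannot fall below 0.25 with 3 libraries or 0.5 with 2, the p-values say nothing about stability. The expressed share of 5D stayed above that of 5A and of 5B, and the TPM share kept the order 5A, 5B, 5D, under every alternative run. The expressed share of 5B minus 5A was -0.44 points with low-confidence genes added. With 5 bins, outer minus inner changed sign from -9.34 points on 5A and -4.45 on 5D, as given below. The remaining reversals were in differences near 0. Values in brackets are the range without each replicate in turn. For 5B minus 5A, the median TPM was 0.021 with genes at 0 included (-0.062 to 0.010), and mean log2(TPM + 1) was 0.018 with them and 0.0049 from mean replicates (-0.0047 to 0.012). For 5D minus 5A, the median TPM was 0.035 and the mean log2 value 0.037 with genes at 0, and the latter was 0.011 with at least 3 counts and 0.0055 from mean replicates (-0.0066 to 0.010). For 5D minus 5B, the median TPM was 0.018 with at least 3 counts and 0.014 with genes at 0, and the mean log2 value was -0.010 with a pseudocount of 0.1 (-0.0052 to 0.011). At 10 TPM, mean replicates gave -0.17 points for 5D minus 5A (-0.0033 to 0.10) and -0.069 for 5D minus 5B (-0.23 to 0.18), and 5B minus 5A ranged from -0.084 to 0.28. At 100 TPM, 5B minus 5A ranged from -0.073 to 0.016. Group 5 minus the others in median TPM was -0.018 at 1 TPM (-0.013 to 0.0069). With 5 bins the outer minus inner share was 0.17 points on 5A and 1.36 on 5D, where the outer bins take in bins 2 and 9 of the 10 and the inner bin only bins 5 and 6; 20 bins hold the same outer and inner genes as 10. For the others the cause was not tested. With 1 library left out the median is the mean of the other 2, so that a gene above 0 in either counts as expressed. No paired analysis was possible because there is only 1 group of samples, so that no groups share replicate numbers; the chromosomes were compared within each library throughout.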

Other observations

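The tables also hold 8369 low-confidence genes of group 5, which the comparisons above leave out: 2738 on 5A, 3101 on 5B and 2530 on 5D. Their expressed share was 53.5%, 50.8% and 50.5%, below that of the high-confidence genes of the same chromosomes. Those models entered the annotation because they overlap histone mark peaks. They held 12.1 ± 2.56% of the TPM of 5A, 10.5 ± 1.53% of that of 5B and 3.55 ± 1.09% of that of 5D (SD, n = 3, of high- and low-confidence genes together). Replicate 3 was the lowest library for each, with 9.13%, 8.74% and 2.29%.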
